A study of Drosophila melanogaster with 16 samples.

Results

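The genes described here lie on chromosome 4 of Drosophila melanogaster, the smallest chromosome of this fly. They are 56 of the 7213 genes measured on 16 single-colour arrays of larval RNA. A gene was taken where a probe set named it alone and the annotation placed it on chromosome 4. Members were also chosen by their measured signal, which had to reach 4 log2 or more on at least 2 of the arrays. Where several probe sets of a gene passed, the one with the highest mean over all arrays stood for it. Of 65 genes of chromosome 4 with such a probe set, 59 passed. The 6 others (CG1674, CG32006, CG33521, Ekar, Kif3C and sv) are not described further. The eye regulators toy and ey and the zinc transporter gene Zip102B passed but were left out by the rule, and their values are given at the end.

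The choice rests on measured levels. Close inside the threshold were mGluR and yellow-h, each at 4 or more on 3 arrays with means of 2.95 and 3.50, and CG1674 lay just outside, at 4 or more on 1 array with a mean of 3.40. Of the 56 members, 36 reached 4 on all 16 arrays. The other 20 were below 4 on at least 1 array, and a member that passed only through the group where it was high had to differ between groups. Of the members, 8 had further tested probe sets, which are compared below.

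The fourth chromosome, also called the dot chromosome or Muller element F, is packed largely as heterochromatin. Its histone H3 is methylated on lysine 9, in good part by the methyltransferase Setdb1 (egg in flies), and it carries the heterochromatin protein HP1a. Its genes are transcribed all the same, and a protein named for painting this chromosome, encoded by Pof, binds along this chromosome and raises the output of its genes.

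The arrays held total RNA of dissected wing discs, the larval epithelia that form the wings, or of brain complexes, with 6 groups of genotype and tissue. The lgl mutants carried the alleles lgl27S3 and lglE2S31, which the labels call lgl-null, and the scrib mutants carried scrib1 and scrib2, each with 3 arrays per tissue. Mutant tissue came from day 9 after egg deposition and is labelled as tumours, and wild-type tissue, with 2 arrays each, from day 5. All larvae were of the third instar. Both mutated genes are known for keeping the polarity of epithelial cells, as scaffolds under the membrane. Between a mutant and wild type, age thus changes with the genotype, and the lgl and scrib comparisons of a tissue share the same wild-type arrays. The comparison of lgl with scrib is made at 1 age. No label says that the arrays of a group came from separate pools of larvae, so the p-values measure the spread between these samples, which may be technical. In whole tissue, fewer cells of a type and less RNA per cell cannot be told apart.

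Some facts of the whole series bear on what follows. The l(2)gl probe set read 2.21 to 5.47 on the 6 lgl arrays and 8.93 to 10.90 on the other 10, so the lgl labels were borne out, while the scrib probe set did not pass the test in either scrib group. Wing disc genes and neuronal genes separated the wild-type tissues as labelled: all 8 measured disc markers were higher in wild-type discs than in wild-type brains and all 9 measured neuronal markers were lower. Between 40.1% and 43.2% of all probe sets reached 4 on an array. Precision is limited by how few arrays each group has. The wild-type arrays numbered replicate 1 stood apart: the median of the X chromosome was 8.02 on the disc array and 7.82 on the brain array, against 8.30 on both replicate 2 arrays, and the brain array also had the highest median of the members.

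Taken over the whole chromosome, signal was lower in scrib tissue. The median of the 56 members was 7.87, 7.74 and 7.57 log2 on the scrib disc arrays, against 8.64 and 8.48 on the wild-type disc arrays. It was 9.16, 8.97 and 9.29 on the scrib brain arrays, against 10.44 and 9.86 on the wild-type brain arrays. In both tissues every scrib array lay below every wild-type array. The lgl disc arrays, at 8.53, 9.03 and 8.86, lay on both sides of the wild-type pair, and the lgl brain arrays, at 9.93, 9.67 and 9.59, overlapped theirs. In both tissues every lgl array lay above every scrib array. The median of all 7213 genes stayed between 8.33 and 8.55 on all 16 arrays.

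**Figure D1:**
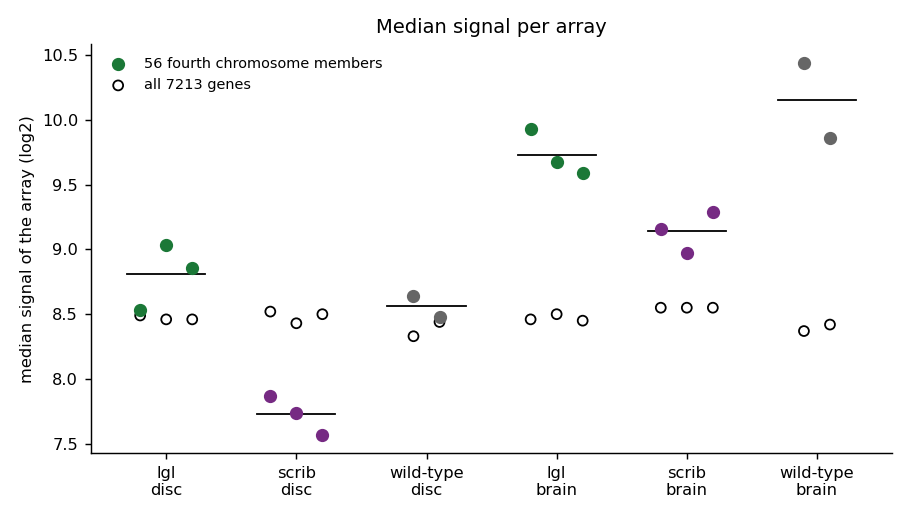
Median log2 signal of the 56 members on each array (filled points) and of all 7213 genes (open points), by group, with the line at the mean of a group's arrays. The scrib arrays lie at 7.57 to 7.87 in discs and 8.97 to 9.29 in brains, below the lgl and wild-type arrays of the same tissue, while the open points stay between 8.33 and 8.55.

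In scrib wing discs 20 of the 56 members fell and 3 rose against wild type (limma, adjusted p below 0.05 over all tested probe sets). Of all genes 9.95% fell and 12.9% rose. The 3 that rose were dati, fuss and CG1909, and CG1909 lay below 4 on every array of both groups. The median log2 difference of the members was -0.63, against 0.01 for all genes. For 35 members (62.5%) every scrib array lay below both wild-type arrays, as it did for 21.9% of all genes, and for 3 members every scrib array lay above, as for 26.1% of all genes. Those that fell include the muscle protein gene bt, the lipid carrier gene apolpp, the receptor tyrosine kinase gene Eph and the translation factor gene eIF4G1. Without scrib disc replicate 3 or wild-type disc replicate 2, some single calls were lost, but the count stayed between 16 and 27 over all arrays left out. With array weights estimated by group it was 13. Markers of several tissues moved in the same comparison: 7 of 8 wing disc markers were lower in scrib discs (median -1.08, summed signal 12.39 to 12.66 log2 in scrib discs and 12.74 to 13.28 in wild-type discs, with Doc2 below 4 on every scrib disc array), as were all 4 fat body markers (median -4.79) and all 3 muscle markers (median -3.17). Their part in the members' fall was not tested.

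In scrib brains 31 members fell and 2 rose, where 14.4% of all genes fell and 20.7% rose. The median was -0.94, against 0.09 for all genes, and for 37 members (66.1%, against 21.6% of all genes) no scrib array reached a wild-type array. The reverse held for 2 members, against 28.8% of all genes. Of the 31, 2 would not have passed the filter without the wild-type brain arrays, so their fall was fixed by the choice of members. The 31 included all 5 measured genes of neuronal transmission (mGluR is such a case), 8 of 12 signalling genes and 5 of 7 genes of RNA, translation and energy. Without wild-type brain replicate 1 the count was 18 lower and 3 higher with a median of -0.61, and without replicate 2 it was 36 lower and 1 higher with a median of -1.20. With array weights by group 13 members were called. Centring the arrays on chromosomes 2 and 3 gave 35 lower and 2 higher, and it turned the split of all tested probe sets, which was 1740 higher and 1333 lower as deposited, to 1404 higher and 1677 lower. In both scrib tissues the same 17 members fell (30.4%), against 4.28% of all genes, namely 4E-T, ATPsynbeta, Ank, CG31999, Cals, Dyrk3, Eph, Ephrin, Gyf, MED26, PMCA, Rad23, Sox102F, Zyx, eIF4G1, mav and unc-13. Of these, 7 kept both calls with each array left out, namely 4E-T, CG31999, Eph, Ephrin, Sox102F, eIF4G1 and unc-13.

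In lgl wing discs the members moved both ways. There 11 rose and 3 fell, where 12.6% of all genes rose and 5.63% fell, and the median was -0.10, against 0.02 for all genes. Without overlap of the arrays, 16 members (28.6%) were above wild type and 17 (30.4%) below it, against 26.6% and 22.1% of all genes. Of the 11 members that rose, 10 belong to the 21 members whose wild-type brain signal was 4-fold or more above that of wild-type discs. The wild-type disc arrays set both this split and the baseline of the change, so a low reading there favours both. Those 21 had a median of 1.16 in lgl discs, and the 819 genes of the whole array with the same wild-type pattern had a median of 0.75. Among the 21, 47.6% rose and 4.76% fell, against 37.6% and 0.611% of the 819. The other 35 members had a median of -0.34, against a median of -0.02 over the 6394 genes without that pattern. Of the 35, 1 rose (Actbeta, 2.86%) and 2 fell (4E-T and MED26, 5.71%). These shares were 9.37% and 6.27% over the 6394 genes, so the share that fell lay near theirs. All 9 measured neuronal markers and all 6 glial markers were also above wild type in lgl discs, with medians of 0.72 and 1.87, and so were all 6 hemocyte markers (median 2.14). All 8 wing disc markers (median -1.40), all 4 fat body markers and all 3 muscle markers (median -3.63) were below wild type. The wing disc list summed to 11.51 to 11.96 log2 in lgl discs, with Doc2 below 4 on every array, and the hemocyte list to 10.18 to 11.03, against 12.74 to 13.28 and 8.75 to 9.52 in wild-type discs. The summed signal of the neuronal list ran from 9.49 to 10.13 log2 in lgl discs, against 8.41 to 9.23 in wild-type discs, and VGlut and brp were below 4 on every lgl disc array. The part of these markers in the members' changes was not tested.

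In lgl brains 17 members fell and 4 rose, where 11.3% of all genes fell and 14.2% rose, with a median of -0.53 against 0.04 for all genes. Of the 17, 1 (mGluR) would not have passed the filter without the wild-type brain arrays, so its fall was fixed by the choice of members. Among the 21 members 4-fold or more higher in wild-type brains than discs, 6 fell (28.6%), near the 32.4% of the 819 such genes. Among the other 35, 11 fell (31.4%), against 8.63% of the 6394 other genes. The wild-type brain arrays set both this split and the baseline of the change. Every lgl array lay below both wild-type arrays for 26 members (46.4%), as for 22.0% of all genes, and above them for 6, as for 25.5%. This count hung on wild-type brain replicate 1: without that array 3 fell and 4 rose with a median of -0.19, and without replicate 2, 29 fell and 2 rose with a median of -0.85. With array weights by group 1 member was called, Actbeta. Neuronal markers were lower in both mutant brains, 9 of 9 in each, with medians of -1.34 in lgl and -1.74 in scrib. Their summed signal was 12.14 to 12.65 in lgl brains and 11.66 to 12.08 in scrib brains, against 13.26 to 13.46 in wild type. Fat body markers were higher for 3 of 4 genes in each mutant brain (medians 1.92 in lgl and 1.51 in scrib), and hemocyte markers for 5 of 6 in lgl (median 1.48) and 4 of 6 in scrib (median 0.60). Their part was not tested.

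Set directly against each other at day 9, every member that passed the test was higher in lgl than in scrib, in both tissues. In discs 23 members were higher in lgl than in scrib and 0 lower, where 11.9% of all genes were higher and 8.71% lower. At an unadjusted p below 0.05, 26 were higher and 1 lower, against 18.0% and 15.8% of all genes. The median was 0.45, against 0.00 for all genes. In brains 9 members were higher and 0 lower, where 5.28% of all genes were higher and 5.68% lower, and at an unadjusted p below 0.05, 20 were higher and 0 lower, against 11.0% and 14.6% of all genes. The median was again 0.45, against -0.07. Every lgl array lay above every scrib array for 34 members (60.7%) in discs and 30 (53.6%) in brains, as for 27.6% and 17.0% of all genes. The reverse held for 3 members in discs and 0 in brains, against 27.7% and 23.1% of all genes. The disc and brain comparisons use different arrays. In both of them 46 of the 56 members (82.1%) were higher in lgl, as were 33.0% of all genes. As a description, the disc and brain differences had a Pearson r of 0.15 over the 56 members and 0.44 over all genes. In both tissues 5 of them passed (8.93%, against 2.59% of all genes), Eph, Ephrin, unc-13, Rnf11 and Sox102F, and of these calls only those of Eph, unc-13 and Rnf11 in discs and Sox102F in brains held with each array left out. The disc count was 15 without scrib disc replicate 3. The brain count was 3 without lgl brain replicate 1, and 4 without lgl brain replicate 2, scrib brain replicate 1 or scrib brain replicate 2.

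**Figure D2:**
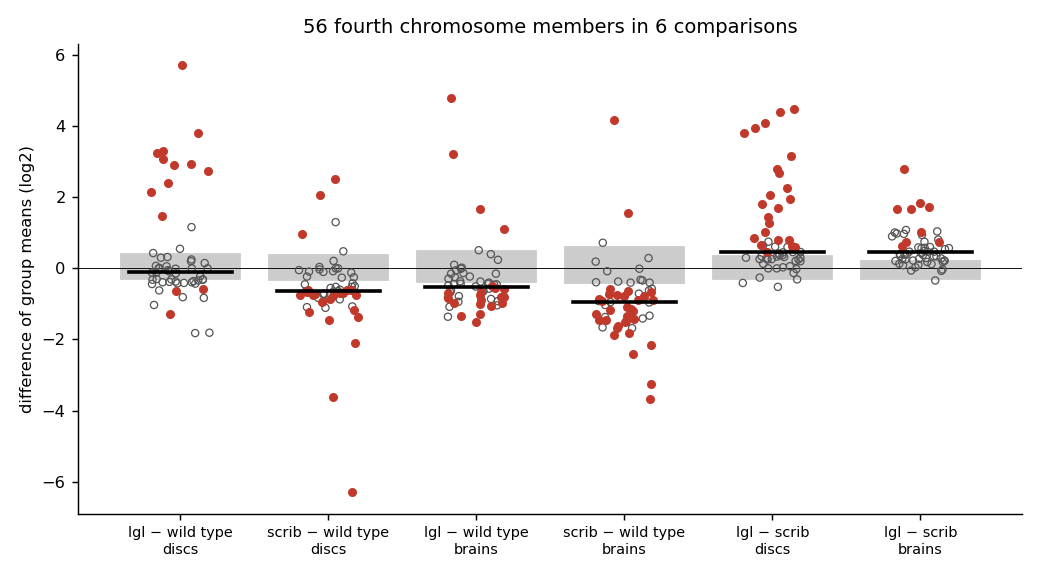
Difference of group means (log2) of each of the 56 members in 6 comparisons, the mutant or lgl group minus the other, with filled points for members called by limma, a black line at the members' median and a grey band between the quartiles of all 7213 genes. The members' medians lie at -0.63 and -0.94 in scrib discs and brains, and at 0.45 for lgl minus scrib in both tissues.

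The difference between lgl and scrib was also measured with the brain-rich members left out. Among the 35 members that were not 4-fold higher in wild-type brains, 9 were higher in lgl discs than in scrib discs and 0 lower with a median of 0.33, while 7.77% of the 6394 genes of that kind were higher and their median was -0.05. In brains 3 of the 35 were higher with a median of 0.28, against 3.88% and a median of -0.09 over those genes. Among the 32 members with a mean of 8 or more over all arrays, 12 were higher in lgl discs than in scrib discs with a median of 0.37, against 8.75% and a median of -0.04 over the 4082 genes at that level. Of the same 32, 18 fell in scrib discs with a median of -0.68, against 9.82% and a median of 0.06. Other measures moved with the groups. The eIF-4a control, read at its 3′ and its 5′ end, gives a 3′ excess that is a sign of how far RNA is broken down, and it was 2.14 to 2.26 on lgl disc arrays, 1.65 to 2.0 on scrib disc arrays and 2.29 to 2.35 on wild-type disc arrays. In brains it was 1.98 to 2.37 in lgl, 1.76 to 1.85 in scrib and 2.32 to 2.70 in wild type. The other 2 such controls did not follow it throughout. ACTIN gave 0.73 to 0.98 on lgl disc arrays, 0.75 to 1.07 on scrib disc arrays and 0.75 to 0.93 on wild-type disc arrays, and 0.68 to 0.90, 0.90 to 1.06 and 0.98 to 0.99 on the lgl, scrib and wild-type brain arrays. GAPDH gave 0.58 to 0.67 on lgl disc arrays, 0.31 to 0.37 on scrib disc arrays and 0.49 to 0.52 on wild-type disc arrays, and its groups overlapped in brains (0.48 to 0.76 in lgl, 0.45 to 0.87 in scrib and 0.56 to 0.66 in wild type). Hemocyte markers were higher in lgl than in scrib for 6 of 6 genes in both tissues, with medians of 2.64 in discs and 0.92 in brains. Neuronal markers were higher for 8 of 9 genes in discs and 7 of 9 in brains, with medians of 1.02 and 0.40. The other lists were mixed or went the other way. In discs and brains glial markers had medians of 0.88 and -0.10, muscle markers -0.65 and -1.56, wing disc markers -0.25 and -0.03, and fat body markers -0.39 and 0.69. The summed hemocyte signal was 10.18 to 11.03 in lgl discs and 9.12 to 9.51 in scrib discs, where eater and srp were below 4 on every array. Taken whole, the other chromosomes (X, 2L, 2R, 3L and 3R) did not show such a shift. Their medians for lgl minus scrib ran from -0.01 to 0.04 in discs and from -0.09 to -0.04 in brains. The 819 brain-rich genes of the whole array did in discs, where 44.3% were higher in lgl and 0.977% lower (median 0.78). Of the 21 brain-rich members 14 were higher there (66.7%, median 1.44). In brains 16.2% of those genes were higher and 6.23% lower (median 0.23). Among the 21 members 28.6% were higher in brains (median 0.75). The part of RNA state and of other cells in the result was not tested.

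**Figure D3:**
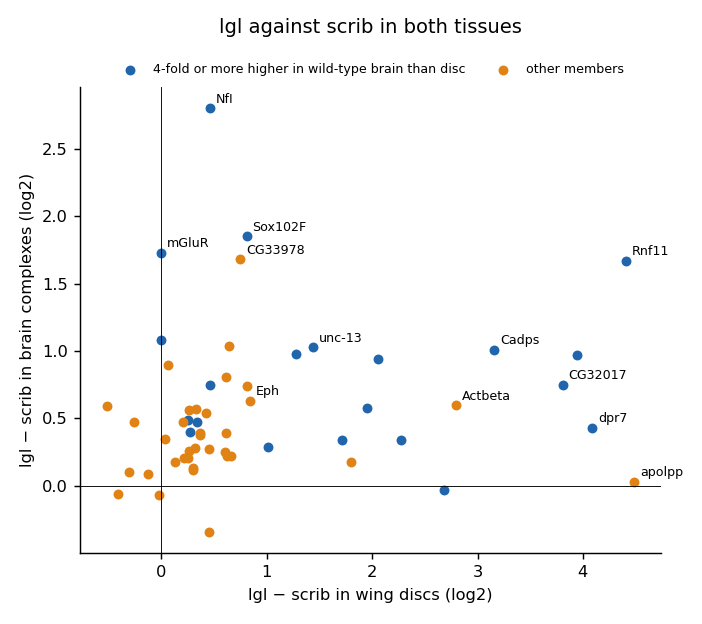
Log2 difference of lgl minus scrib in wing discs (across) and brain complexes (up) for the 56 members, with brain-rich members (4-fold or more in wild type) in blue and the others in orange. Most points, 46 of 56, lie above 0 on both axes, Sox102F, Rnf11 and unc-13 among them, and NfI and CG33978 stand out in brains, apolpp and dpr7 in discs.

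By role, the 10 transcription and chromatin genes held some of the largest changes in both directions. Sox102F, a transcription factor of the SoxD family, read 4.43, 4.48 and 4.83 log2 in lgl discs, 3.89, 4.09 and 3.34 in scrib discs, and 5.50 and 6.24 in wild-type discs. In brains it read 7.97, 7.77 and 7.65 in lgl, 6.27, 5.51 and 6.07 in scrib, and 8.32 and 8.41 in wild type. In both tissues the 3 genotypes fell into separate ranges, scrib lowest and wild type highest. It fell by 2.09 ± 0.28 SE in scrib discs (at least 3.57-fold, limma adjusted p = 0.00023), by 2.42 ± 0.28 SE in scrib brains (5.35-fold, adjusted p = 6.2e-05) and by 1.29 ± 0.28 SE in lgl discs (2.44-fold, adjusted p = 0.0063). With wild-type disc replicate 2 left out, the lgl disc call had an adjusted p of 0.066. A fold is written as at least its value where an array of the dimmer group lay below 4 and was set to 4.

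The zinc finger gene dati, a regulator of behaviour expressed in neurons, rose in both mutant discs. It read 6.09, 7.55 and 6.37 in lgl discs and 5.59, 5.17 and 5.39 in scrib discs, against 3.53 and 2.21 in wild-type discs. Both mutants lay above wild type on every array, lgl highest. It rose by 3.80 ± 0.40 SE in lgl (at least 6.35-fold, adjusted p = 3.5e-05) and 2.51 ± 0.40 SE in scrib (at least 2.61-fold, adjusted p = 0.00075). The Ski and Sno family gene fuss, a transcriptional co-repressor, read 5.42, 5.49 and 5.93 in lgl discs and 5.48, 4.91 and 5.44 in scrib discs, against 3.18 and 3.25 in wild-type discs. Its rise was 2.40 ± 0.39 SE in lgl (at least 3.06-fold, adjusted p = 0.00084) and 2.07 ± 0.39 SE in scrib (at least 2.42-fold, adjusted p = 0.0023), with no overlap with wild type. In scrib brains fuss fell by 1.51 ± 0.39 SE (at least 2.38-fold, adjusted p = 0.0092), a call lost without wild-type brain replicate 1 (adjusted p = 0.10).

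NfI, the fly member of the nuclear factor I family, read 5.92, 6.00 and 5.87 in lgl brains and 2.85, 2.55 and 3.99 in scrib brains, against 8.02 and 5.56 in wild-type brains. The scrib arrays lay below all others, and the lgl arrays lay between the wild-type pair. NfI fell by 3.66 ± 0.57 SE in scrib brains (at least 6.91-fold, adjusted p = 0.00044, with differences of -4.89 to -2.42 when single arrays were left out) and was 2.80 ± 0.51 SE higher in lgl than in scrib brains (at least 3.81-fold, adjusted p = 0.0037). The homeodomain gene onecut read 6.47, 7.37 and 6.16 in lgl discs and 2.62, 3.21 and 2.36 in scrib discs, against 4.60 and 2.59 in wild-type discs. It rose by 3.07 ± 0.62 SE in lgl discs (at least 5.16-fold, adjusted p = 0.0041), and its scrib arrays overlapped wild type. Taf3, a subunit of the general factor TFIID, fell by 0.79 ± 0.17 SE in scrib brains (adjusted p = 0.004) and by 0.70 ± 0.17 SE in lgl brains (adjusted p = 0.012), and the lgl call was lost without wild-type brain replicate 1 (adjusted p = 0.11).

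The Hedgehog effector gene ci, the best known patterning gene of this chromosome, was called in no mutant group. It read 12.58, 12.74 and 12.74 in lgl discs and 12.41, 12.31 and 12.24 in scrib discs, against 12.39 and 12.36 in wild-type discs. Its differences from wild type were 0.32 ± 0.24 SE in lgl discs (adjusted p = 0.40) and -0.05 ± 0.24 SE in scrib discs (adjusted p = 0.94). The zinc finger homeodomain gene zfh2, the helix-loop-helix factor gene Mitf and Hcf, which encodes a chromatin-associated host cell factor, were not called in any mutant group either. Of zfh2 the differences were -1.03 in lgl discs and -1.09 in scrib discs with an SE of 0.60 each.

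Among the 12 signalling and adhesion genes, the ligand and receptor pair of ephrin signalling, which guides cells and axons by contact, was lower in scrib tissue. Eph, the receptor tyrosine kinase, read 9.74, 9.98 and 9.77 in lgl discs and 8.91, 9.19 and 8.88 in scrib discs, against 10.17 and 10.27 in wild-type discs. The brain arrays read 10.53, 10.48 and 10.24 in lgl and 9.76, 9.59 and 10.01 in scrib, against 11.15 and 10.83 in wild type. The genotypes did not overlap in either tissue. Eph fell by 1.23 ± 0.17 SE in scrib discs (2.35-fold, adjusted p = 0.00029) and by 1.20 ± 0.17 SE in scrib brains (2.30-fold, adjusted p = 0.00023), and both calls held with each array left out.

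Ephrin, the membrane-bound ligand of Eph, read 8.04, 8.13 and 8.21 in lgl discs and 7.58, 7.31 and 7.05 in scrib discs, against 8.42 and 8.53 in wild-type discs. In brains it read 8.72, 8.32 and 7.94 in lgl and 7.64, 7.37 and 7.76 in scrib, against 9.27 and 8.90 in wild type. The scrib arrays were again the lowest of each tissue, with lgl between. Ephrin fell by 1.16 ± 0.23 SE in scrib discs (2.23-fold, adjusted p = 0.003) and by 1.49 ± 0.23 SE in scrib brains (2.82-fold, adjusted p = 0.00035). The semaphorin receptor gene PlexB fell by 0.72 ± 0.20 SE in scrib brains (adjusted p = 0.015), and that call was lost without wild-type brain replicate 1 (0.17) or scrib brain replicate 3 (0.054). In scrib discs PlexB differed by -0.52 (adjusted p = 0.083) with no overlap of the arrays. Its second probe set gave -1.20 in scrib discs and -1.02 in scrib brains, and the remaining one gave -0.17 and -1.71.

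The 3 TGF-beta family ligand genes of the chromosome did not move together. Actbeta, an activin ligand of the nervous system, read 9.21, 8.89 and 9.05 in lgl brains and 8.43, 8.43 and 8.49 in scrib brains, against 4.61 and 3.92 in wild-type brains. In discs it read 5.93, 6.01 and 5.06 in lgl and 3.03, 3.22 and 2.35 in scrib, against 3.69 and 3.34 in wild type. It was high in both mutant brains and, among the discs, above 4 in lgl alone. Its rise was 4.78 ± 0.31 SE in lgl brains (at least 26.8-fold, adjusted p = 9.9e-07), 4.18 ± 0.31 SE in scrib brains (at least 17.7-fold, adjusted p = 2e-06) and 2.15 ± 0.31 SE in lgl discs (at least 3.17-fold, adjusted p = 0.00041). Maverick, mav, fell by 0.74 ± 0.23 SE in scrib discs (adjusted p = 0.039) and 0.77 ± 0.23 SE in scrib brains (adjusted p = 0.023). Neither call held when single arrays were left out, wild-type disc replicate 2 and wild-type brain replicate 1 among them. The disc call was also lost without scrib disc replicate 2 (adjusted p = 0.052) or 3 (0.13), the brain call without scrib brain replicate 1 (0.072). With single arrays left out the disc difference ran from -0.98 to -0.49 and the brain difference from -1.02 to -0.51. Myoglianin, myo, differed from wild type by -0.25 to 0.20 over the 4 mutant groups with an SE of 0.45 and was called in none.

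Of the intracellular signalling members, the kinase genes Dyrk3 and Asator and the zyxin gene Zyx, whose product sits at cell adhesions, were lower in mutant brains. Dyrk3 fell by 0.95 ± 0.23 SE in scrib discs (adjusted p = 0.0091, and 0.10 with wild-type disc replicate 2 left out), 1.45 ± 0.23 SE in scrib brains (adjusted p = 0.00043) and 0.88 ± 0.23 SE in lgl brains (adjusted p = 0.014). Asator, a tau tubulin kinase, read 10.17, 10.04 and 9.94 in lgl brains and 9.07, 9.25 and 9.58 in scrib brains, against 11.34 and 10.89 in wild-type brains. It fell by 1.07 ± 0.24 SE in lgl (2.10-fold, adjusted p = 0.0065) and fell by 1.82 ± 0.24 SE in scrib brains (3.52-fold, adjusted p = 0.00013), with 3 separate ranges. Without wild-type brain replicate 1 the lgl brain calls of Dyrk3 (adjusted p = 0.14) and Asator (adjusted p = 0.07) were lost. Zyx fell by 1.08 ± 0.23 SE in scrib brains (adjusted p = 0.0038) and fell by 0.80 ± 0.23 SE in lgl brains (adjusted p = 0.027), where the lgl call was lost without either wild-type array or without lgl brain replicate 2 or 3 (adjusted p between 0.067 and 0.082).

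The 5 measured genes of neuronal transmission were all lower in scrib brains, mGluR by the choice of members. All 5 were also higher in wild-type brains than in wild-type discs, mGluR again by that choice. Many brain-rich genes of the whole array fell in scrib brains, 45.1% of 819 (median -0.97), against 61.9% of the 21 brain-rich members (median -1.46). Among the other 35 members 51.4% fell (median -0.74), against 10.4% of the 6394 other genes (median 0.16). The synaptic vesicle priming factor gene unc-13 read 11.74, 11.45 and 11.48 in lgl brains and 10.57, 10.21 and 10.80 in scrib brains, against 12.65 and 12.12 in wild-type brains. In discs it read 9.11, 9.68 and 9.28 in lgl and 8.01, 7.88 and 7.87 in scrib, against 8.86 and 9.73 in wild type. The scrib arrays were lowest in both tissues, while the lgl discs overlapped wild type. It fell by 1.86 ± 0.27 SE in scrib brains (3.62-fold, adjusted p = 0.00026) and 1.38 ± 0.27 SE in scrib discs (2.60-fold, adjusted p = 0.003).

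The metabotropic glutamate receptor gene mGluR reached 4 only in brains. It read 4.21, 3.99 and 3.64 in lgl brains and 2.22 on every scrib brain array, against 6.40 and 4.53 in wild-type brains, and 2.22 on all 8 disc arrays. The lowest value of these data is 2.21, so the scrib brains hold only a bound. It reached 4 on both wild-type brain arrays and 1 lgl brain array alone, and without the wild-type pair it would not have been a member. Its differences, -3.25 in scrib brains and -1.52 in lgl brains, are therefore given as values with no test.

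The synaptotagmin gene Syt7 read 8.67, 8.99 and 9.12 in lgl brains and 8.72, 8.45 and 8.60 in scrib brains, against 10.44 and 9.97 in wild-type brains. Both mutants lay below wild type and overlapped each other. Syt7 fell by 1.62 ± 0.39 SE in scrib (adjusted p = 0.0072) and 1.28 ± 0.39 SE in lgl brains (adjusted p = 0.032), and both calls were lost without wild-type brain replicate 1 (adjusted p = 0.062 in scrib and 0.20 in lgl). Cals, the calsyntenin gene, fell by 1.18 ± 0.20 SE in scrib brains (adjusted p = 0.00069) and 0.96 ± 0.20 SE in lgl brains (adjusted p = 0.0044, and 0.053 without wild-type brain replicate 1). Cadps, a priming factor of dense-core vesicles, rose in lgl discs. It read 7.18, 7.73 and 6.93 in lgl discs and 4.69, 4.03 and 3.64 in scrib discs, against 5.28 and 3.42 in wild-type discs, a rise of 2.93 ± 0.48 SE in lgl (at least 6.23-fold, adjusted p = 0.001). In scrib brains Cadps fell by 1.46 ± 0.48 SE (adjusted p = 0.032), a call lost without wild-type brain replicate 1 (0.11) or 2 (0.086) and without scrib brain replicate 2 (0.10) or 3 (0.056).

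**Figure D4:**
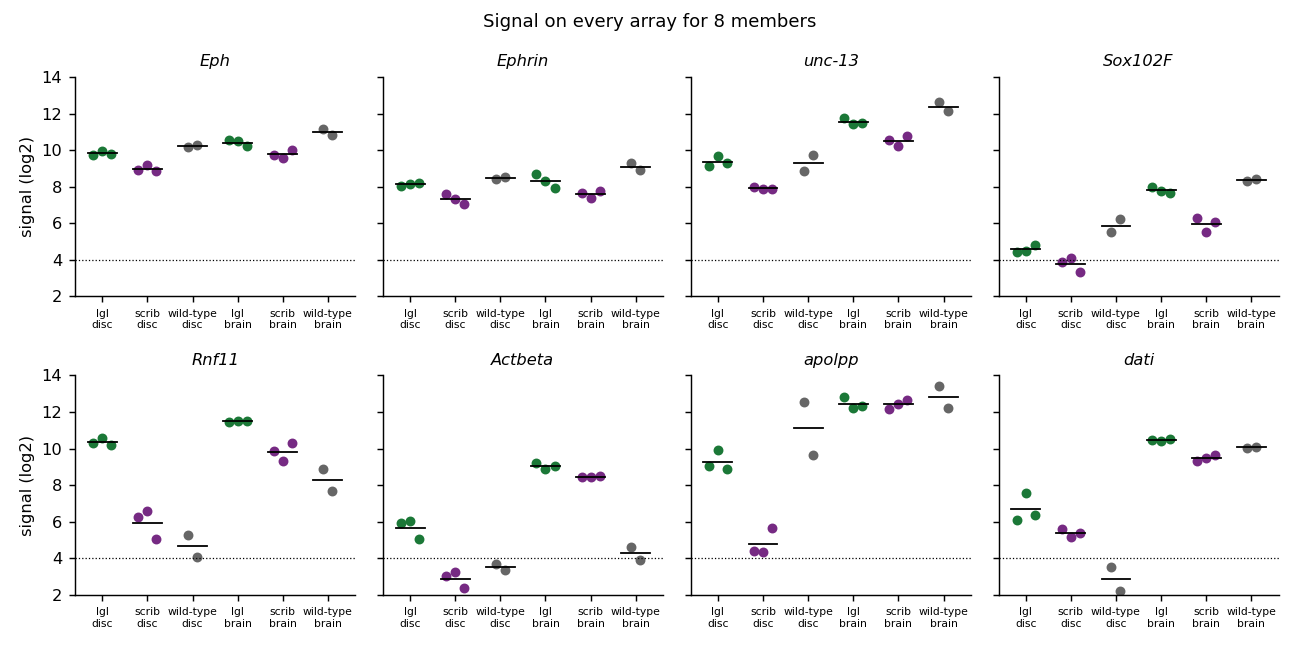
Log2 signal on every array for 8 members, with 1 point per array, a line at the group mean and the dotted line at 4, the filter level. Eph, Ephrin, unc-13 and Sox102F are lower in scrib than in lgl in both tissues, Actbeta stands at 8.43 to 9.21 in mutant brains against 3.92 and 4.61 in wild-type brains, and apolpp is at 4.33 to 5.67 in scrib discs.

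None of the 7 genes of RNA, translation and energy was higher than wild type on average in any mutant group. Their differences ran from -0.96 to -0.01 in lgl brains and from -1.14 to -0.39 in scrib brains, and 5 fell in scrib discs and 5 in scrib brains. 4E-T, whose product binds the cap-binding factor eIF4E and represses translation, was among the 2 members called lower in all 4 mutant groups, the other being MED26, a subunit of the Mediator of transcription. 4E-T read 9.74, 9.69 and 9.70 in lgl discs and 9.49, 9.69 and 9.54 in scrib discs, against 10.24 and 10.49 in wild-type discs. It read 10.15, 10.21 and 10.16 in lgl brains and 9.92, 9.80 and 10.25 in scrib brains, against 11.23 and 11.03 in wild-type brains. All 12 mutant arrays thus lay below the wild-type arrays of their tissue. The falls were 0.65, 0.78, 0.96 and 1.14 in lgl discs, scrib discs, lgl brains and scrib brains, each ± 0.15 SE (adjusted p = 0.0092, 0.0028, 0.00089 and 0.00015). Its lgl disc call did not hold when wild-type disc replicate 2 was left out (adjusted p = 0.066).

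MED26 read 10.37, 10.40 and 10.56 in lgl discs and 10.33, 10.43 and 10.48 in scrib discs, against 10.95 and 11.12 in wild-type discs. The brain arrays read 11.12, 11.13 and 10.97 in lgl and 10.83, 10.46 and 10.90 in scrib, against 11.72 and 11.53 in wild type. Again no mutant array reached a wild-type array of its tissue. The falls were 0.59, 0.62, 0.55 and 0.90 in lgl discs, scrib discs, lgl brains and scrib brains, each ± 0.15 SE (adjusted p = 0.017, 0.011, 0.021 and 0.00079). The disc calls did not hold when wild-type disc replicate 2 was left out (adjusted p = 0.086 in lgl and 0.072 in scrib), and the lgl brain call without wild-type brain replicate 1 (0.12) or lgl brain replicate 3 (0.058). The lgl disc call was also lost without lgl disc replicate 1 (0.059) or 2 (0.055). The 4 comparisons share wild-type arrays by tissue, so these calls are not independent of each other.

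The translation initiation factor gene eIF4G1 read 12.06, 12.00 and 12.29 in lgl discs and 11.70, 11.69 and 11.61 in scrib discs, against 12.60 and 12.49 in wild-type discs. It fell by 0.87 ± 0.15 SE in scrib discs (1.83-fold, adjusted p = 0.0016) and by 0.92 ± 0.15 SE in scrib brains (1.90-fold, adjusted p = 0.00071). Gyf, Rad23 and the ATP synthase subunit gene ATPsynbeta fell in both scrib tissues by 0.58 to 0.76 log2. In brains none of these calls held without wild-type brain replicate 1. The Gyf brain call was also lost without any 1 scrib brain array (adjusted p from 0.05 to 0.06). With single arrays left out, the Gyf difference in scrib brains ran from -0.95 to -0.22. In discs the Gyf call was lost without wild-type disc replicate 2 (0.10), the ATPsynbeta call without wild-type disc replicate 1 (0.11), and both without scrib disc replicate 3 (0.061 and 0.058). The microRNA silencing gene gw and the DNA repair glycosylase gene Tdg were called in none of the mutant groups. For gw the differences were -0.42 in scrib discs (adjusted p = 0.073) and -0.39 in scrib brains (adjusted p = 0.07).

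Among the 5 structural and secreted genes, apolpp, which encodes the lipid-carrying apolipophorins, changed most of all members in scrib discs. It read 9.03, 9.93 and 8.89 in lgl discs and 4.39, 4.33 and 5.67 in scrib discs, against 12.54 and 9.66 in wild-type discs. It read 12.83, 12.20 and 12.31 in lgl brains and 12.18, 12.44 and 12.63 in scrib brains, against 13.40 and 12.24 in wild-type brains. The scrib discs lay far below all other groups, and the lgl discs overlapped wild type. In scrib discs it fell by 6.30 ± 0.69 SE (78.6-fold, adjusted p = 4.9e-05), and lgl discs were 4.49 ± 0.61 SE higher than scrib discs (22.4-fold, adjusted p = 0.00025). Lipophorin is made by fat body, and the 4 measured fat body markers were also lower in mutant discs, with medians of -5.70 in lgl and -4.79 in scrib against wild type. Their summed signal was 8.32 to 10.26 in lgl discs and 9.53 to 9.83 in scrib discs, against 12.56 to 15.49 in wild-type discs. In brains it was 10.56 to 13.79 in lgl, 9.46 to 14.34 in scrib and 9.26 to 9.95 in wild type. Between lgl and scrib discs 2 of the 4 markers were higher in lgl, with a median of -0.39. Their part in the apolpp value was not tested.

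The giant muscle protein gene bt read 4.94, 5.68 and 5.65 in lgl discs and 3.03, 3.82 and 4.02 in scrib discs, against 8.29 and 6.20 in wild-type discs. It fell by 3.62 ± 0.60 SE in scrib discs (at least 9.44-fold, adjusted p = 0.001). The 3 measured muscle markers were lower in scrib discs as well, with a median of -3.17 and summed signals of 6.24 to 7.14, against 8.17 to 11.36 in wild-type discs, and their part was not tested. The ankyrin gene Ank, a link of membrane proteins to spectrin, fell by 0.69 ± 0.17 SE in scrib discs (adjusted p = 0.0097, and 0.072 with wild-type disc replicate 2 left out) and 0.89 ± 0.17 SE in scrib brains (adjusted p = 0.0014).

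PMCA, the plasma membrane calcium pump gene, read 12.00, 11.95 and 11.79 in lgl brains and 11.50, 11.55 and 11.82 in scrib brains, against 13.19 and 12.63 in wild-type brains. It fell by 1.29 ± 0.18 SE in scrib brains (2.45-fold, adjusted p = 0.00024), 1.0 ± 0.18 SE in lgl brains (2-fold, adjusted p = 0.0023) and 0.71 ± 0.18 SE in scrib discs (adjusted p = 0.015). The disc call was lost when wild-type disc replicate 2 or scrib disc replicate 3 (0.057) was left out. Its 3 probe sets disagreed. The second, with differences of -0.88 in scrib discs and -1.19 in scrib brains, ran with the first, but the third was 3.17 higher in scrib discs and 3.02 higher in scrib brains than in wild type. Over all members with further probe sets, 19 of 25 differences set beside a call had the sign of the call. The 6 that did not were 4 of this PMCA probe set and 2 of CG33978.

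Of the 17 other members, Rnf11, which encodes a RING finger protein, had the largest rise of any member in lgl discs. It read 10.30, 10.57 and 10.22 in lgl discs and 6.24, 6.58 and 5.02 in scrib discs, against 5.26 and 4.04 in wild-type discs. In brains it read 11.46, 11.53 and 11.51 in lgl and 9.85, 9.30 and 10.32 in scrib, against 8.87 and 7.68 in wild type. The lgl arrays were the highest in both tissues, and scrib lay between lgl and wild type or overlapped wild type. The rise in lgl discs was 5.71 ± 0.49 SE (52.4-fold, adjusted p = 6.1e-06). Rnf11 was 4.41 ± 0.43 SE higher in lgl than in scrib discs (21.3-fold, adjusted p = 1.8e-05) and 1.67 ± 0.43 SE higher in brains (3.18-fold, adjusted p = 0.027), where its second probe set gave 1.57 in discs and 1.61 in brains. Against wild type it rose by 3.22 ± 0.49 SE in lgl brains (9.33-fold, adjusted p = 0.00067) and 1.55 ± 0.49 SE in scrib brains (2.93-fold, adjusted p = 0.026), and the scrib call was lost without wild-type brain replicate 2 (adjusted p = 0.20), scrib brain replicate 1 (0.056) or scrib brain replicate 3 (0.083). Against wild type the second probe set gave 3.27 in lgl discs and 2.90 in lgl brains, where the first gave 5.71 and 3.22.

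Several other members that are bright in brains rose in lgl discs. dpr7, a cell surface protein gene of the immunoglobulin superfamily, read 6.56, 7.32 and 6.33 in lgl discs and 2.68, 2.27 and 3.00 in scrib discs, against 4.76 and 2.21 in wild-type discs. CG32017 read 8.31, 9.02 and 8.48 in lgl discs and 4.52, 5.22 and 4.63 in scrib discs, against 7.17 and 3.41 in wild-type discs. The lgl arrays lay above all others, and the wild-type pair was far apart for both genes. The rises were 3.25 ± 0.54 SE for dpr7 (at least 5.12-fold, adjusted p = 0.001) and 3.31 ± 0.75 SE for CG32017 (at least 8.11-fold, adjusted p = 0.008). With 1 of the wild-type disc arrays left out they ranged from 1.98 to 4.53 for dpr7 and from 1.44 to 5.19 for CG32017. Gat, a GABA transporter gene of glia, read 4.15, 6.05 and 5.68 in lgl discs and 2.60 to 2.62 in scrib discs, against 2.62 and 2.52 in wild-type discs, a rise of 2.73 ± 0.63 SE (at least 2.46-fold, adjusted p = 0.0086).

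CG1909, also bright in brains, read 5.15, 5.76 and 5.37 in lgl discs and 3.44, 3.28 and 3.71 in scrib discs, against 2.75 and 2.29 in wild-type discs. It rose by 2.90 ± 0.31 SE in lgl discs (at least 2.68-fold, adjusted p = 4e-05). Its difference of 0.96 ± 0.31 SE in scrib discs (adjusted p = 0.041) lay wholly below 4, where values carry no order, and the call was lost without any 1 scrib disc array or without wild-type disc replicate 2 (adjusted p from 0.053 to 0.22). In scrib brains it fell by 1.41 ± 0.31 SE (2.65-fold, adjusted p = 0.0038), with differences of -2.04 to -0.77 when single arrays were left out. CG31999 read 8.36, 8.24 and 8.43 in lgl discs and 7.21, 6.68 and 6.02 in scrib discs, against 8.11 and 8.08 in wild-type discs, a fall of 1.46 ± 0.33 SE in scrib (2.75-fold, adjusted p = 0.0073). The brain arrays read 9.11, 9.18 and 9.06 in lgl and 8.63, 8.85 and 8.86 in scrib, against 11.07 and 9.87 in wild type. The falls there were 1.35 ± 0.33 SE in lgl (adjusted p = 0.011, and 0.15 without wild-type brain replicate 1) and 1.69 ± 0.33 SE in scrib (adjusted p = 0.0019, with differences of -2.29 to -1.09 when single arrays were left out).

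In lgl brains the forkhead gene fd102C read 7.46, 7.54 and 7.64, against 7.0 and 5.84 in wild-type brains, a rise of 1.12 ± 0.32 SE (2.18-fold, adjusted p = 0.022). CG33978 read 5.13, 6.10 and 5.30 in lgl brains and 3.20, 4.90 and 3.39 in scrib brains, against 4.10 and 3.57 in wild-type brains. Its rise in lgl was 1.68 ± 0.51 SE (at least 2.76-fold, adjusted p = 0.031), and its second probe set gave -0.28. Without wild-type brain replicate 2 both calls were lost, at adjusted p = 0.17 for fd102C and 0.11 for CG33978, as they were without lgl brain replicate 2 (0.053 and 0.10), fd102C also without lgl brain replicate 3 (0.055) and CG33978 without wild-type brain replicate 1 (0.074). Of the 56 members, 13 passed in no comparison of a mutant with wild type: CG11360, CG31997, CG33941, Hcf, Mitf, Mpv17, Slip1, Tdg, ci, gw, myo, yellow-h and zfh2.

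The change against wild type differed between the tissues for part of the members, by limma's test of that difference. For lgl the signed change was higher in discs than in brains for 13 members and lower for 1, where 9.14% of all genes were higher and 4.21% lower. Of the 13, 12 were among the 21 brain-rich members (57.1%), against 50.8% of the 819 brain-rich genes. Among the other 35 members 1 was higher and 1 lower (2.86% each), against 3.8% and 4.68% of the 6394 genes of that kind. Within each kind the shares that were higher thus lay near those of like genes. The wild-type arrays set both this split and the difference. For scrib it was higher in discs for 6 members (10.7%) and lower for 2 (3.57%), where 6.14% and 5.05% of all genes were. These scrib shares lie near those of all genes, and the 6 include mGluR and NfI, members only through their brain arrays. The medians over members, 0.33 for lgl and 0.32 for scrib, rest on wild-type brain replicate 1, since without that array they were 0.01 and 0.02. With array weights by group 1 and 2 calls were left.

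The difference between lgl and scrib was spread along the chromosome. The members were put in their annotated order (assembly Release 6 plus ISO1 MT) and cut into 4 stretches of 14. In discs the medians of lgl minus scrib were 0.54 over PlexB to Rad23, 0.70 over Rnf11 to Eph, 0.41 over mav to mGluR and 0.33 over 4E-T to Cadps. In brains they were 0.45, 0.61, 0.31 and 0.25 along the same stretches. Between 11 and 14 of the 14 members of each stretch were higher in lgl in each tissue. Against wild type the 4 medians ran from -0.67 to -0.58 in scrib discs and from -1.11 to -0.83 in scrib brains. No stretch stood at or above 0 in scrib tissue. Neighbouring genes are not independent, and the stretches were not tested against each other.

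**Figure D5:**
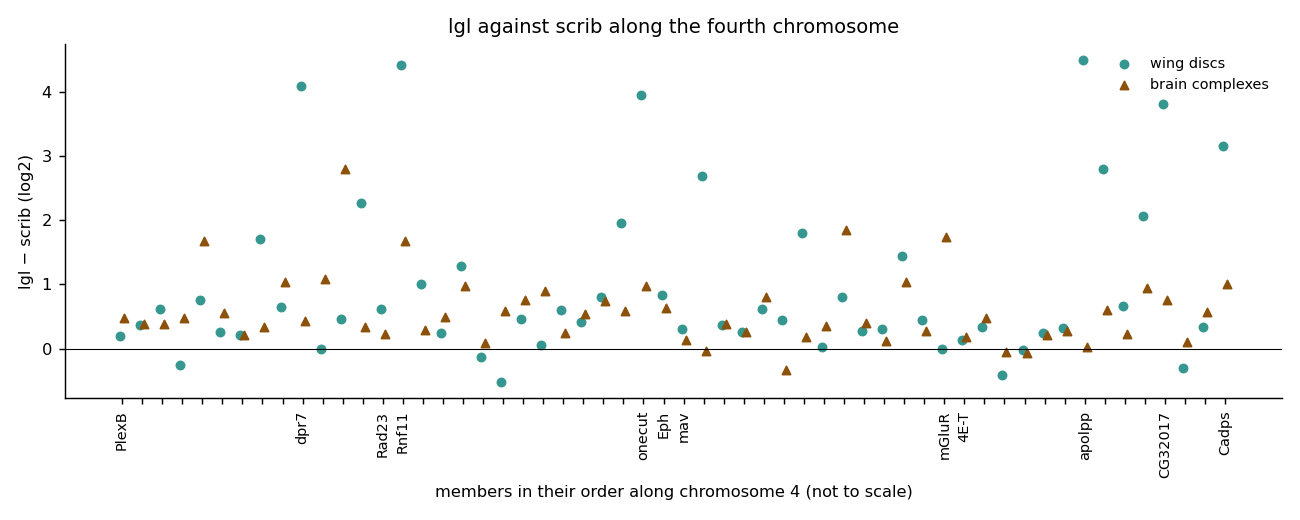
Log2 difference of lgl minus scrib for the 56 members in their order along chromosome 4 (evenly spaced, not to scale), with circles for wing discs and triangles for brain complexes. Most symbols lie above 0 from end to end, and the tallest circles are those of apolpp, Rnf11, dpr7, onecut and CG32017.

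The chromosome was also uneven between the wild-type tissues. In wild-type discs 30 members were lower than in wild-type brains and 6 higher, where 22.3% of all genes were lower and 20.6% higher, and the median was -0.77 against 0.01. Of the 30, 2 would not have passed the filter without the wild-type brain arrays, so their direction was fixed by the choice of members. The arrays did not overlap for 34 members that were lower and 6 that were higher, against 28.1% and 27.2% of all genes. The largest differences were those of dpr7 (-7.80 ± 0.59 SE, at least 120-fold), dati (-7.19 ± 0.44 SE, at least 66.6-fold), CG32017 (-7.10 ± 0.82 SE, at least 112-fold) and onecut (-6.97 ± 0.68 SE, at least 77.0-fold). Higher in discs were CG33978 (5.52 ± 0.56 SE, at least 39.6-fold), CG31997 (4.23 ± 0.44 SE, 18.8-fold), mav (2.23 ± 0.26 SE, 4.69-fold), ci (2.08 ± 0.26 SE, 4.22-fold), CG33941 and Mitf. Without both replicate 1 wild-type arrays the median was -0.47.

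The 3 genes left out of the members showed large differences of their own, given here as values. toy, a Pax6 gene of eye development, read 8.68, 9.28 and 8.61 in lgl discs and 2.21, 2.41 and 2.30 in scrib discs, against 4.09 and 2.41 in wild-type discs. ey, the other Pax6 gene, read 4.89, 5.10 and 3.42 in lgl discs and 2.43, 2.43 and 2.56 in scrib discs, against 2.81 and 2.78 in wild-type discs. Zip102B read 10.23 to 10.27 in scrib discs and 9.93 to 10.29 in scrib brains, and 3.49 to 3.99 on all 10 other arrays. With these 3 counted too, 59 genes gave 20 lower and 4 higher in scrib discs, 31 lower and 3 higher in scrib brains, and 25 higher and 1 lower for lgl minus scrib in discs.

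Genes elsewhere in the genome whose products act on the fourth chromosome were read from a list of 8, of which 6 were measured. Pof read 7.82, 8.20 and 8.03 in lgl discs and 8.09, 7.95 and 7.75 in scrib discs, against 7.62 and 8.19 in wild-type discs. In brains it read 8.67, 8.49 and 8.29 in lgl and 8.46, 8.38 and 8.52 in scrib, against 7.91 and 8.36 in wild type. Its differences from wild type were 0.03 to 0.35 with an SE of 0.21, and adjusted p ran from 0.24 to 0.97. The HP1a gene differed by -0.29 in lgl discs and -0.23 in scrib discs (adjusted p = 0.18 and 0.28). The HP1 family gene HP1b rose in lgl brains by 0.62 ± 0.16 SE (adjusted p = 0.013) and in scrib brains by 0.66 ± 0.16 SE (adjusted p = 0.0067), and without wild-type brain replicate 1 both calls were lost (0.10 in lgl and 0.054 in scrib). None of the 6 passed between lgl and scrib in either tissue. The nearest were wde, whose product works with the Setdb1 methyltransferase, at 0.46 ± 0.16 SE in discs (adjusted p = 0.059), and HP1b and HP1c, at -0.39 and -0.40 there (adjusted p = 0.07 each).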

How the data were processed

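The 16 arrays are of the Affymetrix Drosophila Genome 2.0 type with 1 colour, each read with total RNA of wing discs or brain complexes. The deposited values are log2 signals that the authors made with GCRMA, per the submitters' processing notes; its version is not given in the sources used here. GCRMA corrects background by probe sequence and sets dim probe sets to a common floor, so low values carry no order and folds of dim genes are bounds. Only values of the deposited table were used, and 0 of its columns were left unmapped.

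Of 18952 probe sets, 183 controls were left out, and the 8819 that reached 4 log2 on at least 2 arrays were fitted together in limma 3.58.1 (R 4.3.3) with 6 group means and an empirical Bayes variance. P-values were adjusted by Benjamini-Hochberg over all tested probe sets in each of 9 comparisons, and a call needs an adjusted p below 0.05. Gene names and order came from the supplied annotation tables. Of all probe sets, 13647 carried 1 gene symbol, 402 several and 4720 none, and those with several named no gene. For a fold, arrays of the dimmer group below 4 were set to 4, and the fold is then written as at least that value. Where a gene had several probe sets, the brightest was used; they are compared in the text.

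The members and all lists were chosen with earlier results of these data known. Any member could be named within its role list. The values of 1 member are not reported here. In each comparison with wild type, up to 6 called members each way by smallest adjusted p were given with full statistics, and up to 4 each way by largest change, and members called alike in all 4 mutant groups, with their array values. In the other comparisons up to 4 each way were named by size. Statistics or array values of others (Ephrin, unc-13, onecut, fuss, Cadps, Taf3, zfh2, Dyrk3, PlexB, mav, myo, Ank, Gat, gw and ci among them) were chosen after their values were seen. Alternatives changed the filter, the scaling, the variance model, the arrays fitted, the replicate number as a block and each array in turn. The fit was tested on simulated data with known changes.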

Additional observations from a re-analysis of the deposited data

Results flagged for a closer look

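The effect of a mutation differed between discs and brains for 22 pairs of member and genotype, by limma's test of the difference itself (the mutant minus wild-type difference in discs, minus that in brains). Of the 56 members 13 were higher and 1 lower for lgl, where 9.14% of all genes were higher and 4.21% lower. Of these 13, 12 were among the 21 brain-rich members (57.1%), near the 50.8% of the 819 brain-rich genes of the whole array. For scrib 6 were higher (10.7%) and 2 lower (3.57%), near the 6.14% and 5.05% of all genes. In lgl larvae the difference of effects was 4.24 for CG32017, 4.20 for dpr7, 4.09 for Gat, 3.73 for CG1909, 3.44 for fuss, 3.39 for dati, 3.37 for Cadps, 3.12 for onecut, 2.49 for Rnf11 and 2.44 for Syt7. It was 1.60 for CG31999, 1.30 for PMCA and 0.94 for Cals, and it was -2.63 for Actbeta, whose rise was larger in brains. The adjusted p-values ran from 0.00018 for CG1909 to 0.041 for CG31999 and Cals.

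In scrib larvae the difference of effects was 3.62 for NfI, 3.58 for fuss, 3.25 for mGluR, 3.09 for dati, 2.36 for CG1909 and 1.36 for Asator, and it was -5.90 for apolpp and -4.83 for Actbeta. The adjusted p-values ran from 3.6e-05 for Actbeta to 0.02 for Asator. The value of mGluR equals its fall in scrib brains, since it was at the floor on all disc arrays. NfI was also below 4 on all disc arrays (2.21 to 3.33), and its value lies near its fall of 3.66 in scrib brains. Since mGluR and NfI entered the members only through brain arrays in which they were bright, their values support nothing. Over every alternative setting, the calls of CG1909 for lgl and of Actbeta for scrib held. The groups of 2 and 3 arrays are too small for a test of single outlying arrays.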

How the results depend on the processing

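No call reversed its direction under any setting, but the median difference of scrib effects between tissues, 0.32, was -0.08 without both wild-type replicate 1 arrays. Counts below are members called in either direction, of 56 unless stated, and where a value moved the cause was not tested except where fewer genes enter by construction. With array weights by group the counts were 9 in lgl discs, 13 in scrib discs, 1 in lgl brains and 13 in scrib brains against wild type, 15 for lgl minus scrib in brains, and 1 and 2 for the difference of the lgl and scrib effects between tissues. Without the filter, lgl minus scrib in brains gave 5 and the difference of lgl effects 9. Fits of 1 tissue alone gave 13 in lgl brains and 5 for lgl minus scrib in brains. A fold of at least 2 left 9 in scrib discs and 8 in lgl brains. A filter at 6 gave 5 for the difference of scrib effects.

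Further subsets were chosen after seeing the data. Without the brain-rich members (35 left), the counts were 3 in lgl discs, 13 in lgl brains, 19 in scrib brains, 9 and 3 for lgl minus scrib in discs and brains, 15 for wild-type discs minus brains and 2 for each difference of effects. The medians that moved were -0.34 in lgl discs, -0.30 between wild-type tissues and 0.07 for the difference of lgl effects. With a mean of 8 or more (32 left), the counts were 4 in lgl discs, 12 and 5 for lgl minus scrib in discs and brains, 17 between wild-type tissues, and 5 and 2 for the differences of the lgl and scrib effects, and the wild-type median was -0.48. Without both wild-type replicate 1 arrays, 10 were called in lgl brains, and the medians were -0.19 in lgl brains, -0.61 in scrib brains, -0.47 between wild-type tissues, and 0.00 and -0.08 for the differences of the lgl and scrib effects. Adding the 3 left-out genes, also such a choice, moved no count by over 1.5 times.

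With each array left out in turn, the counts ran from 12 to 17 in lgl discs, 16 to 27 in scrib discs, 7 to 31 in lgl brains, 21 to 37 in scrib brains, 15 to 20 and 3 to 7 for lgl minus scrib in discs and brains, 31 to 40 between wild-type tissues, and 10 to 22 and 8 to 15 for the differences of the lgl and scrib effects. In the same order the medians ran from -0.26 to 0.00, -0.68 to -0.53, -0.85 to -0.19, -1.20 to -0.61, 0.37 to 0.53, 0.41 to 0.46, -0.96 to -0.55, 0.01 to 0.56 and 0.02 to 0.53. Centring on chromosomes 2 and 3 shifted the median of all tested probe sets by -0.12 in scrib brains, and the members' median there was -1.05. No label says that a replicate number marks shared larvae or a batch. Same-numbered arrays had correlations from -0.169 to 0.434, the highest between wild-type discs and brains, where 2 arrays a group give 1 value for both numbers. The next highest was 0.236. The main fit did not pair samples by number. Its comparisons that join wild-type discs and brains treat these arrays as independent, which the value of 0.434 leaves in doubt. With the replicate block the counts were 15 in lgl discs, 21 in scrib discs, 18 in lgl brains, 32 in scrib brains, and 22 and 8 for lgl minus scrib in discs and brains. Of 181 calls of a member in a comparison, 109 were kept with each array left out and 76 under every alternative. Signals near the floor of 2.21 limit what can be seen of the dimmest members.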

Other observations

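Beside the median, the number of members with signal differed between the disc genotypes. On every lgl disc array 50 of the 56 members reached 4 log2, and on every scrib disc array 42 did, against 45 and 39 on the wild-type disc arrays. In brains 56, 53 and 54 members reached 4 in lgl and 51, 51 and 50 in scrib, against 56 and 52 in wild type. The 2 wild-type brain arrays also differed in how far the members lay above the median of all genes, by 2.07 on replicate 1 and 1.44 on replicate 2, as values with no test.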
